A study of Mus musculus with 12 samples.

Results

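Wt1, Tcf21, Mab21l2, Upk1b and Upk3b are genes used as markers of the proepicardium and the epicardium. They were taken by their symbol in the platform annotation, and they were 5 of the 19938 genes measured here, each read by the only probe set that carries its symbol alone. RNA from dissected mouse embryo hearts of stage E8.75 was hybridised to 12 Affymetrix arrays, 3 for each of 4 genotypes, numbered as biological replicates. The genotypes were WT (wild type), Tbx5 KO, Nkx2-5 KO and the double KO, in which both genes are lost. The labels name the KO groups by gene only and do not give the allele, the mouse strain or how many embryos were pooled for an array. Crossing the losses of these cardiac transcription factors asks what each changes alone and what changes when both are absent.

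The proepicardium is a cluster of mesothelial cells that forms at the venous pole of the heart, next to the septum transversum, around the stage sampled. Its cells attach to the heart tube and spread over it as the epicardium, and some of their descendants become fibroblasts and vascular smooth muscle of the heart. Tbx5 is itself known to be made in the proepicardium and in the inflow region, whereas Nkx2-5 is known mainly from heart muscle and its progenitors. Wt1 encodes a zinc finger transcription factor of mesothelia, and Tcf21 a basic helix-loop-helix factor of cells that go on to form cardiac fibroblasts. Mab21l2 encodes a nuclear protein needed for the proepicardium and the septum transversum, and also for the eye. Upk1b encodes a tetraspanin and Upk3b a single-pass membrane protein; both are uroplakins, first known from the lining of the bladder and also made by mesothelia.

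The promoter windows are shown because the lost factors bind DNA, and Mab21l2 and Upk3b were among the genes that changed. RefSeq windows of 300 bases, from 250 bases before to 50 bases after the annotated start, were matched for 3 of the 5 genes. They are given on the gene's own strand in assembly GRCm38.p6, in lower case, with any searched motif in capitals. The windows are chr3:86548234-86548533 on the minus strand for Mab21l2, chr5:136038246-136038545 on the plus strand for Upk3b and chr10:22820094-22820393 on the minus strand for Tcf21.
Mab21l2: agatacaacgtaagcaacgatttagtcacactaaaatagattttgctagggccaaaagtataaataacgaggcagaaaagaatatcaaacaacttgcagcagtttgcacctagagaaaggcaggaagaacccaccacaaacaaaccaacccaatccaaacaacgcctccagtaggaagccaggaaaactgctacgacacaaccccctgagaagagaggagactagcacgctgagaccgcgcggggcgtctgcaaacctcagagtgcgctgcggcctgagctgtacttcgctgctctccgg
Upk3b: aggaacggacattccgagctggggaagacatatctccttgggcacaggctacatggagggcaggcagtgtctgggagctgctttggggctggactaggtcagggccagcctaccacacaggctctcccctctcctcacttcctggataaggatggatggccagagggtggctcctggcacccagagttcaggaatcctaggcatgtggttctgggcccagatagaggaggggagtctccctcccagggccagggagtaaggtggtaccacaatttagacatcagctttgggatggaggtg
Tcf21: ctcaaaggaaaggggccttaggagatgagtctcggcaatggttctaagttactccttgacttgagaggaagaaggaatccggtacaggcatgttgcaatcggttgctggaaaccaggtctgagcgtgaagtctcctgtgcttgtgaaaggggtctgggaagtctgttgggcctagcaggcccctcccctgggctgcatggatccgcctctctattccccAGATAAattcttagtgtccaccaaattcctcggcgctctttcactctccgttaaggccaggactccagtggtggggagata
The T-box element AGGTGT, the NKX2-5 element TNAAGTG and the GATA site AGATAA were searched on both strands. The only match was a GATA site in the Tcf21 window, whose first base lies 31 bases before the start. Of the 32851 RefSeq windows of this length, 13.7% hold the T-box element, 11.5% the NKX2-5 element and 11.2% the GATA site. A match is a description of letters and not of a bound site, and the absence of one says only that these letters are not in this window.

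Values are log2 expression units of the deposited table, so a difference of 1 is a doubling. Differences are given with the standard error (SE) of the limma fit to all 12 arrays, with n = 3 arrays a group. A gene was called, and is said to have risen or fallen, when its Benjamini-Hochberg adjusted p over the 19938 genes was under 0.05. The labels do not say whether the arrays of a group came from separate litters, so these p-values measure the spread between the arrays as given. In whole hearts, fewer cells of a type and less RNA per cell cannot be told apart.

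The arrays had medians between 8.05 and 8.25, and their correlations over genes were 0.984 to 0.992 within groups and 0.957 to 0.986 between groups. Muscle genes were strong on all arrays (Tnnt2, cardiac troponin T, 13.98 to 14.30). The deposited values carry no detection flag. As a rough guide to background, 95% of the 1194 olfactory and vomeronasal receptor genes had means below 7.74, and all 5 markers had means above that. A level above the guide does not by itself show that a gene is expressed. The median of all genes was 8.36, and the means of Tcf21 (8.35) and Upk3b (8.20) were below that median. Upk1b lay below the guide on 2 of the 3 Nkx2-5 KO arrays and 1 WT array, and the other markers were above the guide on all 12. A difference from a group below the guide is given as measured, without a fold, because the lower level was not shown to be above background. Xist was 11.46 to 12.32 on the WT and Tbx5 KO arrays and 6.44 to 8.16 on the Nkx2-5 KO and double KO arrays, and Eif2s3y, on the Y chromosome, ran the other way. Loss of Nkx2-5 and the sex of the embryos therefore cannot be told apart in these samples; none of the 5 genes is on a sex chromosome. The Nkx2-5 probe set fell by 0.41 ± 0.11 in Nkx2-5 KO (adjusted p = 0.0499), and the Tbx5 probe set was 0.47 ± 0.15 higher in Tbx5 KO than in WT, which was not called, and rose by 0.54 ± 0.15 in the double KO (adjusted p = 0.0193). The labels do not give the removed part of either gene, so neither value checks the genotypes.

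**Figure D1:**
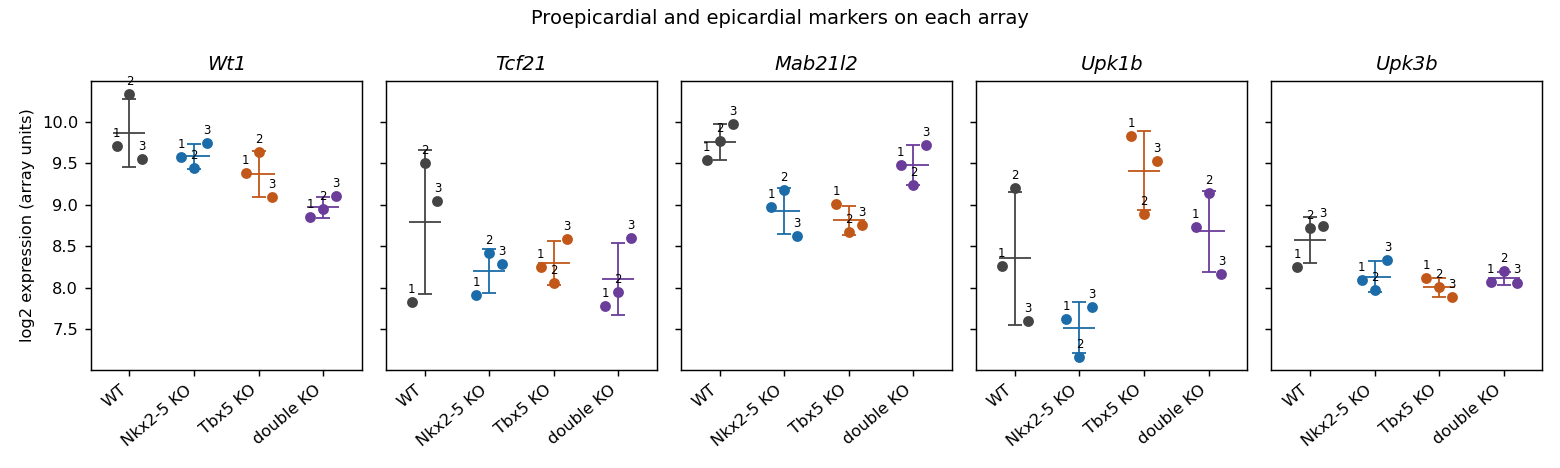
Log2 expression (y axis, array units) of the 5 markers on each of the 12 arrays. Points are arrays with their replicate number, and the bar and whiskers are the mean ± SD of 3 arrays. Mab21l2 is low in both single KO groups and higher in the double KO, Wt1 is lowest in the double KO, and Upk1b is lowest in Nkx2-5 KO and highest in Tbx5 KO.

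Wt1 was lower when both factors were lost. It read 9.70, 10.33 and 9.56 on the WT arrays, 9.57, 9.44 and 9.74 in Nkx2-5 KO, 9.38, 9.64 and 9.09 in Tbx5 KO, and 8.85, 8.95 and 9.10 in the double KO. All double KO arrays lay below every WT and Nkx2-5 KO array, while the highest of them was just above the lowest Tbx5 KO array. The group means fell in the order WT (9.86 ± 0.41, SD), Nkx2-5 KO (9.58 ± 0.15), Tbx5 KO (9.37 ± 0.27) and double KO (8.97 ± 0.13), and no neighbours in this order differed by the test. Wt1 fell by 0.90 ± 0.19 in the double KO against WT (1.86-fold, adjusted p = 0.0043). The difference was -0.28 ± 0.19 in Nkx2-5 KO (adjusted p = 0.513) and -0.49 ± 0.19 in Tbx5 KO (0.224), neither called. Between double KO and Nkx2-5 KO it was -0.62 ± 0.19 (adjusted p = 0.0776), although the arrays did not overlap. This difference was called without WT replicate 2 (0.027), with array weights (0.0261) and when the fit held only the arrays compared (0.0347).

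The summed single KO differences of Wt1 were -0.77, close to the -0.90 of the double KO. The non-additive term, the double KO difference minus that sum, was -0.12 ± 0.27 (adjusted p = 0.939). The effect of losing Tbx5 was also averaged over hearts with and without Nkx2-5, a contrast added after the values had been seen. On that contrast Wt1 fell by 0.56 ± 0.13 (adjusted p = 0.0202). The matching average for loss of Nkx2-5 was -0.34 ± 0.13 (adjusted p = 0.106). Wt1os, an antisense transcript gene whose annotated interval lies 18 bases from that of Wt1 (chr2:105126529-105173614), read 7.05 to 7.85 on the 12 arrays and was not called in any comparison.

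Tcf21 did not pass the test in any comparison, and its WT arrays were the most spread of the 4 groups. It read 7.83, 9.51 and 9.04 in WT, 7.91, 8.42 and 8.28 in Nkx2-5 KO, 8.25, 8.06 and 8.59 in Tbx5 KO, and 7.78, 7.94 and 8.60 in the double KO. The first WT array lay below most KO arrays and the other WT arrays above all of them, so every pair of groups overlapped. The differences from WT were -0.59 ± 0.35 in Nkx2-5 KO (adjusted p = 0.432), -0.49 ± 0.35 in Tbx5 KO (0.584) and -0.69 ± 0.35 in the double KO (0.173). Without WT replicate 1, Tcf21 was called in the double KO (-1.17, adjusted p = 0.0078). The KO groups lay within 0.19 of each other. The group order was WT (8.79 ± 0.86, SD), Tbx5 KO (8.30 ± 0.27), Nkx2-5 KO (8.20 ± 0.26) and double KO (8.11 ± 0.43), and no neighbours differed by the test.

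Mab21l2 fell in both single KO groups but was not called in the double KO. It read 9.54, 9.76 and 9.97 in WT, 8.97, 9.18 and 8.62 in Nkx2-5 KO, 9.01, 8.67 and 8.755 in Tbx5 KO, and 9.47, 9.24 and 9.72 in the double KO. Every WT and double KO array was above every single KO array, and WT and double KO overlapped. Mab21l2 fell by 0.83 ± 0.17 in Nkx2-5 KO (1.78-fold, adjusted p = 0.0178) and by 0.95 ± 0.17 in Tbx5 KO (1.93-fold, 0.012). In the double KO the difference from WT was -0.28 ± 0.17 (adjusted p = 0.248).

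The double KO was above Tbx5 KO by 0.67 ± 0.17 for Mab21l2 (adjusted p = 0.023), and above Nkx2-5 KO by 0.55 ± 0.17 (0.0752, not called; 0.0285 after quantile normalization again). The single KO differences sum to -1.78, and the non-additive term was 1.501 ± 0.24 (adjusted p = 0.015). It was called under all 19 alternatives tried, at 1.35 to 1.63. The single KO calls were less firm. That in Nkx2-5 KO was lost without its own replicate 1 or 3 or without WT replicate 3 (adjusted p 0.0652 to 0.0691), and that in Tbx5 KO without WT replicate 3 (0.0567). The double KO against Tbx5 KO call was lost without Tbx5 KO replicate 2 or 3 or double KO replicate 1 or 3 (0.0558 to 0.0794). The group order was WT (9.76 ± 0.21, SD), double KO (9.48 ± 0.24), Nkx2-5 KO (8.92 ± 0.28) and Tbx5 KO (8.81 ± 0.18), and no direct neighbours differed by the test.

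Upk1b was the marker with the widest range, and it was higher with Tbx5 lost. It read 8.26, 9.20 and 7.60 in WT, 7.62, 7.17 and 7.76 in Nkx2-5 KO, 9.82, 8.88 and 9.53 in Tbx5 KO, and 8.74, 9.14 and 8.17 in the double KO. The WT arrays spanned most of this range and overlapped each KO group, while every Nkx2-5 KO array lay below every Tbx5 KO and double KO array. Upk1b was 1.89 ± 0.37 higher in Tbx5 KO than in Nkx2-5 KO (adjusted p = 0.0149), with the Nkx2-5 KO mean of 7.52 below the receptor guide. This call was lost without Nkx2-5 KO replicate 1 or 2 or Tbx5 KO replicate 1 or 3 (adjusted p 0.0553 to 0.0792).

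Against WT, Upk1b was not called in any KO group. The differences were 1.06 ± 0.37 in Tbx5 KO (adjusted p = 0.173), -0.84 ± 0.37 in Nkx2-5 KO (0.252) and 0.33 ± 0.37 in the double KO (0.545). Without WT replicate 2, the Tbx5 KO difference was 1.48 and called (0.0371), as it was with array weights (1.33, 0.0416). The double KO was 1.16 ± 0.37 above Nkx2-5 KO (0.0869), called without WT replicate 2 (0.0406), with array weights (0.0351) and when the fit held only the arrays compared (0.0469). On the contrast averaged over both Nkx2-5 states, Upk1b rose by 1.11 ± 0.26 with loss of Tbx5 (adjusted p = 0.0178), in the opposite direction to Wt1. The average for loss of Nkx2-5 was -0.78 ± 0.26 (0.0569). The non-additive term of Upk1b was 0.10 ± 0.52 (adjusted p = 0.975). Its groups ran from Tbx5 KO (9.41 ± 0.48, SD) through the double KO (8.68 ± 0.49) and WT (8.35 ± 0.81) to Nkx2-5 KO (7.52 ± 0.31), with no neighbours different by the test.

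Upk3b was lower in the KO groups by small amounts. It read 8.25, 8.72 and 8.74 in WT, 8.09, 7.97 and 8.33 in Nkx2-5 KO, 8.12, 8.004 and 7.89 in Tbx5 KO, and 8.07, 8.20 and 8.06 in the double KO. The lowest WT array was above every Tbx5 KO and double KO array but below 1 Nkx2-5 KO array. Upk3b fell by 0.46 ± 0.14 in the double KO (1.37-fold, adjusted p = 0.0299). That call was lost without WT replicate 2 or 3, without any 1 of the double KO arrays (adjusted p 0.0512 to 0.107) and with only the arrays compared (0.0601).

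The larger difference of Upk3b in Tbx5 KO, -0.57 ± 0.14, was not called (adjusted p = 0.053). It was called after quantile normalization again (0.0296), with arrays centred on their median (0.0391), with array weights (0.037) and without WT replicate 1 (0.0156). The Nkx2-5 KO difference was -0.44 ± 0.14 (0.0968), called with array weights (0.0349) and without WT replicate 1 (0.0417). The non-additive term of Upk3b was 0.55 ± 0.20 (adjusted p = 0.358). The order was WT (8.57 ± 0.28, SD), Nkx2-5 KO (8.13 ± 0.18), double KO (8.11 ± 0.08) and Tbx5 KO (8.003 ± 0.11), and neighbours did not differ by the test.

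**Figure D2:**
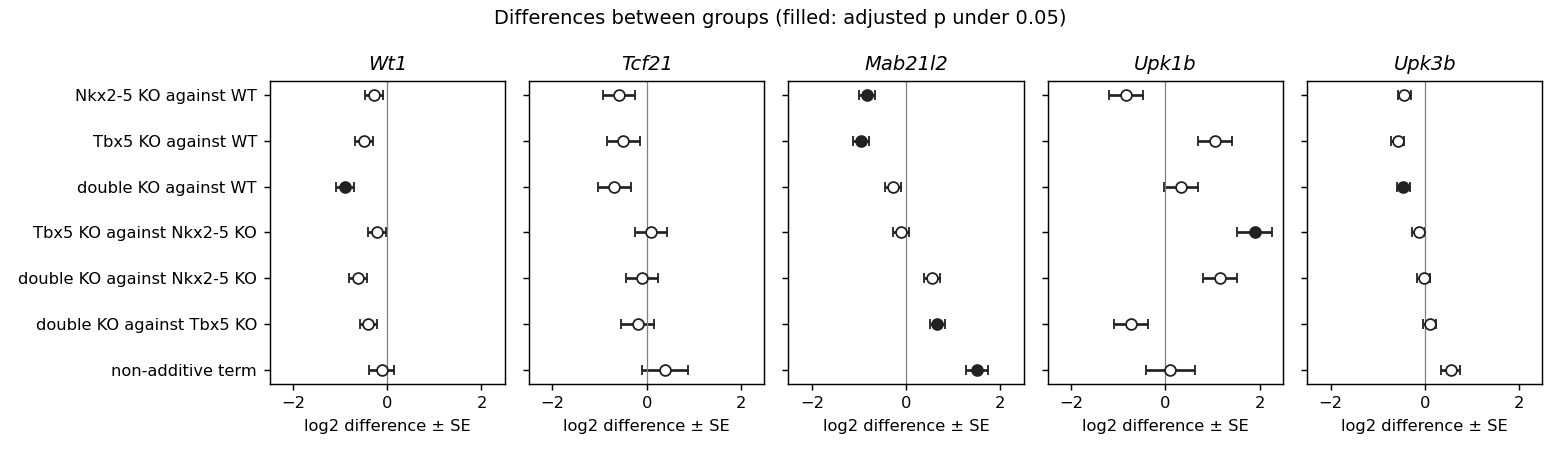
Log2 difference ± SE (x axis) of each marker in the 7 comparisons (y axis), with filled points called at an adjusted p under 0.05. Mab21l2 is called in 4 comparisons with opposite signs, Wt1 and Upk3b only in double KO against WT, Upk1b only in Tbx5 KO against Nkx2-5 KO, and Tcf21 in none.

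Few of the 5 markers were called in any comparison, and their counts are set beside the share of all genes called. The markers and the gene lists were chosen with earlier results of these data known. Counts and median differences, here and for the lists below, are therefore descriptions and not an independent test. In Nkx2-5 KO against WT 1 of 5 was called (Mab21l2), beside 4.43% of all genes, and in Tbx5 KO against WT 1 of 5 (Mab21l2), beside 2.31%. In the double KO against WT 2 of 5 were called (Wt1 and Upk3b), beside 23.4%. With so many genes called there, that count says little about the markers. Tbx5 KO against Nkx2-5 KO called 1 (Upk1b; 2.39% of all genes), and double KO against Tbx5 KO called 1 (Mab21l2; 10.7%). Double KO against Nkx2-5 KO called 0 by limma, with 3 at an unadjusted p under 0.05 and 5.56% of all genes called. The non-additive term called 1 (Mab21l2), beside 0.547%, the lowest share of any comparison. The average over both Nkx2-5 states called 2 for loss of Tbx5 (Wt1 and Upk1b; 10.6%). The average over both Tbx5 states called 0 for loss of Nkx2-5, with 2 at an unadjusted p under 0.05 (17.1%).

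The median difference of the 5 markers was -0.59 for Nkx2-5 KO, -0.49 for Tbx5 KO and -0.46 for the double KO, where all genes had medians of 0.00, 0.01 and 0.06. Nkx2-5 KO had 5 of 5 below WT. The other KO groups each had 4 of 5, Upk1b being the exception. These 3 comparisons share their WT arrays. Without WT replicate 2, 1 marker was called in Nkx2-5 KO and 1 in the double KO, and 2 were called in Tbx5 KO.

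Nearby family members were examined because closely related probe sets can share signal. Among the uroplakin genes Upk1a, Upk2, Upk3a and Upk3bl, 0 of 4 were called by limma in the 7 comparisons and the 2 averages. At an unadjusted p under 0.05, 1 of the 4 was found in double KO against WT and 1 in double KO against Tbx5 KO. Among Tcf15, Tcf23, Tcf24, Msc, Mab21l1, Mab21l3 and Wt1os, 0 of 7 were called, with 1 at an unadjusted p under 0.05 in Nkx2-5 KO against WT. Mab21l1, the closest relative of Mab21l2, read 6.66 to 7.27 on the 12 arrays, below the receptor guide of 7.74.

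A wider list held 20 other genes of the proepicardium, epicardium and mesothelium, of which 19 were measured. In Tbx5 KO 3 fell and 1 rose, where 2.31% of all genes were called. Without Tbx5 KO replicate 1 or 3 the count was 0, and without Tbx5 KO replicate 2 or WT replicate 3 it was 1. Calls over all genes also dropped from 461, to 216 without Tbx5 KO replicate 1 and 246 without replicate 3. They were 294 without Tbx5 KO replicate 2 and 212 without WT replicate 3. The genes that fell were Tbx18, a T-box factor of the proepicardium and sinus horns, Itga4, the integrin subunit with which proepicardial cells bind VCAM1, and Lrrn4, a mesothelial membrane protein. Podxl, the sialomucin podocalyxin, rose. Itga4 read 8.501, 9.99 and 8.752 in WT and 7.28 to 7.68 in Tbx5 KO, a fall of 1.60 ± 0.34 (adjusted p = 0.0281) with no overlap. Tbx18 fell by 0.96 ± 0.20 (0.0276) from 7.85, 8.74 and 7.94 in WT to 7.09 to 7.29. Tbx18, Itga4 and Lrrn4 lay below the receptor guide on 3 of 3 Tbx5 KO arrays and on 3 of 3 double KO arrays. The median of the 19 genes was -0.40, where that of all genes was 0.01.

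In the double KO 4 genes of the wider list fell and 3 rose, where 23.4% of all genes were called. Tbx18 (-0.94 ± 0.20), Lrrn4 (-0.64 ± 0.17), Itga4 (-1.59 ± 0.34) and Tgfbr3, the TGF-beta co-receptor betaglycan (-1.003 ± 0.22), fell, with adjusted p from 0.0046 to 0.0154. Podxl rose by 0.51 ± 0.10, Cdh1, epithelial cadherin, by 1.02 ± 0.28 and Tmem255a by 1.76 ± 0.46. In Nkx2-5 KO 2 genes rose and 0 fell, and 10 had an unadjusted p under 0.05. Aldh1a1, a retinaldehyde dehydrogenase, rose by 1.02 ± 0.16 (adjusted p = 0.0058) and Cdh1 by 1.22 ± 0.28 (0.028), Cdh1 being below the receptor guide on 2 of 3 WT arrays. The count of 2 stands beside 4.43% of all genes, and it was 1 when Nkx2-5 KO replicate 1 or 2, or replicate 1 or 3 of WT, was left out. The medians were -0.01 in the double KO and 0.00 in Nkx2-5 KO.

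The wider list was also compared between KO groups. Of all genes, 2.39% were called for Tbx5 KO against Nkx2-5 KO and 5.56% for double KO against Nkx2-5 KO. The share was 10.7% for double KO against Tbx5 KO and 0.547% for the non-additive term. It was 10.6% for averaged loss of Tbx5 and 17.1% for averaged loss of Nkx2-5. Tbx5 KO against Nkx2-5 KO had 3 falls, Aldh1a1 (-1.55 ± 0.16), Gpm6a (-1.55 ± 0.28) and Pdgfra, and 0 rises, with 1 call left without Nkx2-5 KO replicate 1. Aldh1a1 was below the receptor guide on 3 of 3 Tbx5 KO arrays and 2 of 3 double KO arrays. Double KO against Nkx2-5 KO had 1, Aldh1a1 (-1.43 ± 0.16), and 2 without WT replicate 2. Double KO against Tbx5 KO and the non-additive term each had 0 by limma, with 3 at an unadjusted p under 0.05 in each. The first had 1 without WT replicate 1, Nkx2-5 KO replicate 2 or double KO replicate 3, and 2 without Nkx2-5 KO replicate 3, which also gave the non-additive term 1. Averaged over both Nkx2-5 states, loss of Tbx5 came with 6 falls and 2 rises. Among the falls were Tbx18 (-0.69 ± 0.14) and Itga4 (-1.29 ± 0.24), and the rises were Podxl (0.34 ± 0.07) and Tmem255a (1.16 ± 0.32). This total of 8 was 4 without Tbx5 KO replicate 2, and 5 without WT replicate 3, Nkx2-5 KO replicate 1, Tbx5 KO replicate 1 or 3, or double KO replicate 2. Averaged over both Tbx5 states, loss of Nkx2-5 came with 4 rises and 1 fall. Pdgfra (1.26 ± 0.26), Cdh1 (1.02 ± 0.19), Gpm6a (0.82 ± 0.20) and Aldh1a1 (0.57 ± 0.11) rose, and Tgfbr3 fell (-0.52 ± 0.16).

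**Figure D3:**
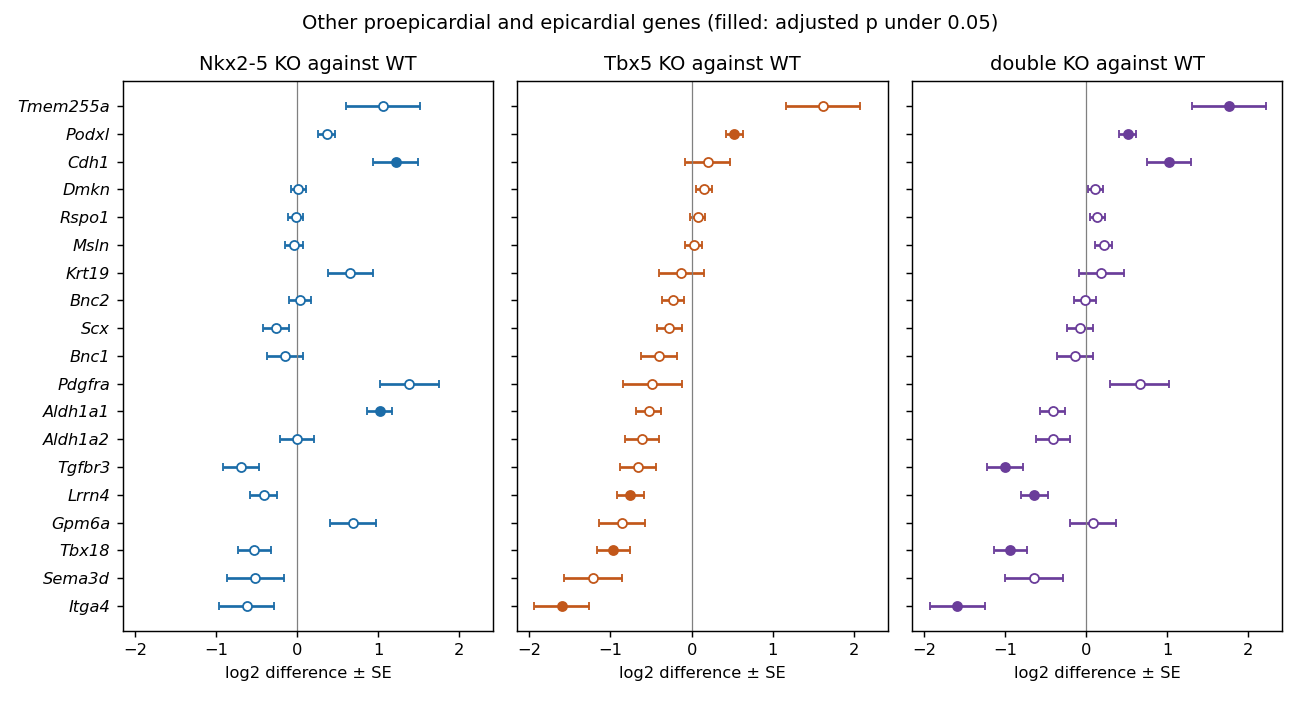
Log2 difference from WT ± SE (x axis) of 19 other proepicardial and epicardial genes (y axis) in the Nkx2-5, Tbx5 and double KO groups, with filled points called. Tbx18, Itga4 and Lrrn4 are called lower, and Podxl higher, in Tbx5 KO and in the double KO. Cdh1 is called higher in Nkx2-5 KO and in the double KO. Aldh1a1 is called higher in Nkx2-5 KO, and in the double KO Tgfbr3 is called lower and Tmem255a higher.

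Some arrays stood apart for these genes. WT replicate 2 was the highest of the 12 arrays for 7 of the 19 wider genes and for 2 of the 5 markers, Wt1 and Tcf21, where 8.31% of all genes were highest on that array. Its mean over the 19 genes was 8.98, against 8.33 and 8.56 on the other WT arrays, 8.74 to 8.85 in Nkx2-5 KO, 8.23 to 8.37 in Tbx5 KO and 8.49 to 8.61 in the double KO. Without it, 4 wider genes were called in each single KO group and 6 in the double KO. Nkx2-5 KO replicate 2 had high values of Prrx1 (10.29, against 8.39 and 8.37 on the other arrays of its group), Otx2 (9.41), Sox2 (9.74) and Cdh1 (9.51), genes of head mesenchyme, the anterior nervous system and epithelia. Without that array, 1 wider gene was called in Nkx2-5 KO. WT replicate 3 was the highest array for 3 of 15 genes of the septum transversum and liver bud, beside 7.89% of all genes. Double KO replicate 2 was highest for 3 of them (15.5% of all genes) and double KO replicate 3 for 4 (9.5%). Over this list WT replicate 3 therefore did not stand apart from all other arrays. Within the WT group it read 9.25 for Ttr (7.85 and 8.04 on the other WT arrays) and 10.83 for Foxf1 (8.85 and 9.60). Foxf1 was higher still in the double KO (11.08 to 11.37). Tubb3, of the optic and neural list below, read 10.77 on WT replicate 3 (9.61 and 9.78 on the other WT arrays). Mab21l2 was also highest on WT replicate 3 (9.97), and its calls in both single KO groups were lost without that array. Its differences from WT were then -0.73 in Nkx2-5 KO and -0.84 in Tbx5 KO. Calls over all genes dropped as well, from 884 to 335 in Nkx2-5 KO and from 461 to 212 in Tbx5 KO. What part these arrays' tissue content has in the results was not tested.

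**Figure D4:**
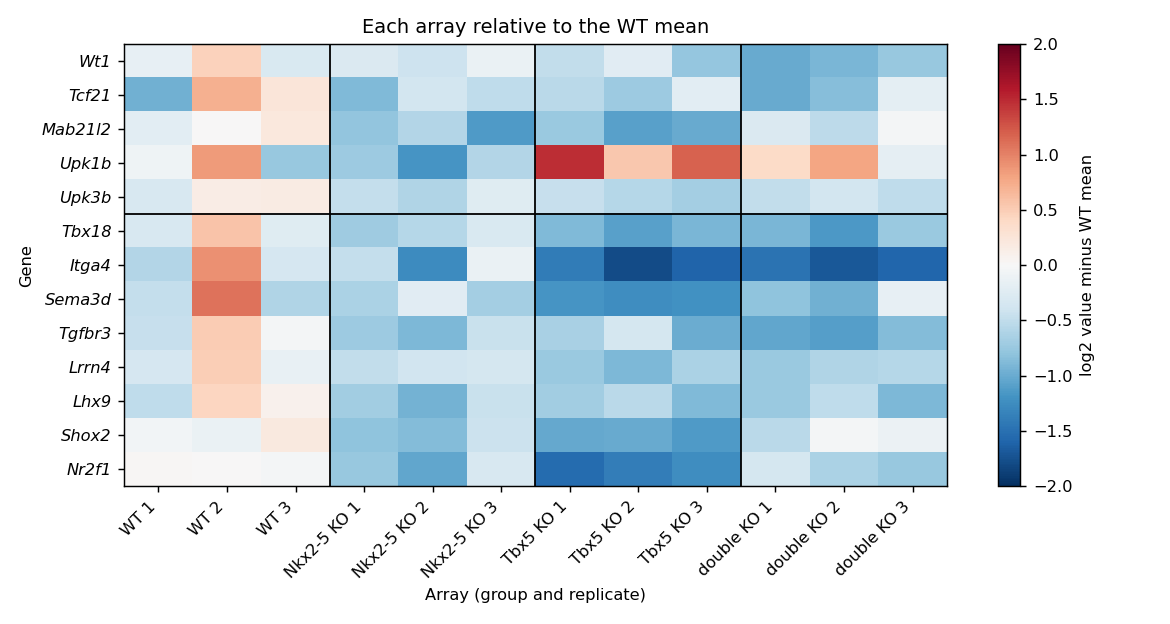
Log2 value minus the WT mean (colour) for the 5 markers, 6 related genes and the inflow genes Shox2 and Nr2f1 (rows) on each array (columns). The related genes, Tbx18, Itga4, Sema3d, Tgfbr3, Lrrn4 and Lhx9, all had lower means in each KO group than in WT. Podxl, Cdh1 and Tmem255a of the wider list, called higher in the double KO, are not drawn. WT replicate 2 is high for Wt1, Tcf21, Upk1b, Tbx18, Itga4 and Sema3d, and Mab21l2, Shox2 and Nr2f1 are lower in both single KO groups than in WT.

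Genes of neighbouring tissues were measured beside the markers, and every count in the double KO stands beside 23.4% of all genes called there. Of 15 genes of the septum transversum and liver bud, 1 fell in Nkx2-5 KO, 0 were called in Tbx5 KO, and 2 rose and 1 fell in the double KO. Their mean level lay between 8.38 and 8.73 in WT, 8.40 and 8.57 in Nkx2-5 KO, 8.56 and 8.58 in Tbx5 KO, and 8.56 and 8.66 in the double KO. Alb, which defines liver cells, read 6.59 to 6.96 on the 12 arrays, under the receptor guide. Afp read 6.92 to 7.996 and Ttr 7.67 to 9.25, on both sides of it. Apoa1 (8.03 to 9.09) and Hhex (9.46 to 10.67) lay above it on all 12. Of 8 genes of the urogenital ridge and body wall, which also make Wt1 and Tcf21, 1 fell in each single KO (Cited1), and 2 rose and 2 fell in the double KO. Their mean level was 7.93 to 8.09 in WT, 7.76 to 7.96 in Nkx2-5 KO, 7.69 to 7.70 in Tbx5 KO and 7.74 in the double KO. Most of the list did not share these lower means. The median difference of the 8 genes from WT was 0.03 for the double KO. It was 0.05 with only Nkx2-5 lost and -0.004 with only Tbx5 lost. Cited1 alone had a mean of 10.38 on the WT arrays, against 9.23 (Nkx2-5 KO), 8.71 (Tbx5 KO) and 8.45 (double KO). The part of these tissues in the marker results was not tested.

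Of 9 genes of pharyngeal arch muscle and mesenchyme, 0 were called in either single KO, and 1 rose and 1 fell in the double KO. Their mean level was 7.87 to 8.07 in WT, 7.9997 to 8.48 in Nkx2-5 KO, 7.93 to 8.06 in Tbx5 KO and 8.04 to 8.07 in the double KO. Of 8 optic and neural genes, Mab21l2 being also an eye gene, 1 rose (Pax6) and 1 fell (Tubb3) in each single KO, and 2 rose and 1 fell in the double KO. Their mean level was 7.84 to 8.16 in WT, 8.23 to 8.51 in Nkx2-5 KO, 7.95 to 8.09 in Tbx5 KO and 8.28 to 8.42 in the double KO. Pax6 rose by 0.97 ± 0.16 in Tbx5 KO, by 1.70 ± 0.16 in Nkx2-5 KO and by 1.85 ± 0.16 in the double KO. All its WT arrays lay below the receptor guide. Six6 (7.20 to 7.57) and Rax (7.07 to 7.71) of the same list lay below the guide on all 12 arrays. The part of eye or neural tissue in the Mab21l2 result was not tested. Of 6 endothelial genes, 0 were called in either single KO and 3 fell in the double KO, and their mean level was 9.83 to 10.58 in WT, 10.26 to 10.58 in Nkx2-5 KO, 9.86 to 10.14 in Tbx5 KO and 9.80 to 10.004 in the double KO. Of 8 cardiac muscle genes, 1 fell in each single KO (Nppa), and 3 rose and 2 fell in the double KO.

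Genes that attach or induce the proepicardium changed in both directions. Of 15 such genes, Itga4 among them again, and beside the same shares of all genes, 1 rose and 1 fell in Nkx2-5 KO, 3 rose and 3 fell in Tbx5 KO, and 3 rose and 4 fell in the double KO. Vcam1, the myocardial partner of Itga4, read 11.46 to 11.60 in WT and 8.78 to 9.47 in the double KO. Vcam1 fell by 1.20 ± 0.24 in Tbx5 KO (adjusted p = 0.0209) and by 2.39 ± 0.24 in the double KO (3.8e-05), and its double KO arrays overlapped no other group. Bmp4, a ligand made near the venous pole, rose by 0.77 ± 0.19 in Tbx5 KO (0.0499) and by 1.03 ± 0.19 in the double KO (0.0016). Bmp2, a ligand of the atrioventricular canal, fell by 1.24 ± 0.28 in Tbx5 KO (0.0398). Fgf10, a growth factor of progenitors, rose by 1.85 ± 0.26 in Nkx2-5 KO (0.0028).

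The list of the sinus venosus and inflow had 11 measured genes. They include Tbx18 and Bmp4 again, Foxf1 of the septum transversum list and the targeted gene Tbx5. Of the 11, 3 rose and 2 fell in Nkx2-5 KO, beside 4.43% of all genes called. In Tbx5 KO 1 rose and 5 fell, beside 2.31%. In the double KO 4 rose, Tbx5 among them, and 3 fell, beside 23.4%. Hcn4, the pacemaker channel, rose by 0.90 ± 0.18 in Nkx2-5 KO and fell by 1.22 ± 0.18 in Tbx5 KO. The transcription factor genes Nr2f1 and Nr2f2 fell by 1.39 ± 0.16 and 1.84 ± 0.24 in Tbx5 KO. Shox2 and Nr2f1 were the genes of this list called for the non-additive term, as Mab21l2 was among the markers. Shox2, a factor of the sinus node, read 7.40 to 7.74 in WT, 6.67 to 7.11 in Nkx2-5 KO, 6.41 to 6.53 in Tbx5 KO and 7.003 to 7.50 in the double KO, so all its arrays lay below the receptor guide.

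Correlations among the markers ran from -0.17 to 0.63. Across the 12 arrays, which share their 4 groups, Pearson r was 0.62 for Wt1 with Upk3b, 0.63 for Tcf21 with Upk3b, 0.61 for Upk3b with Mab21l2 and 0.52 for Wt1 with Tcf21. Upk1b had r from -0.17 to 0.04 with each of the others. With the group means removed, Upk3b with Mab21l2 had r = -0.01, whereas Wt1 with Tbx18 had 0.67 (0.82 before). Upk1b then had r = 0.41 with Wt1, 0.29 with Upk3b, 0.09 with Tcf21 and -0.37 with Mab21l2. These values are descriptions over arrays that include WT replicate 2.

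The genes with patterns most like each marker were taken by Pearson r over the 12 arrays among all genes tested. For Wt1 they were Gngt2 (r = 0.93), Rbm43 (0.92) and Trdmt1 (0.91). Those of Tcf21 were Gap43, Ctdsp1 and Tmem245 (each 0.88). Mab21l2 was most like Ntn1, E2f2 and Ccdc91 (each 0.89). Upk1b was most like Klhdc8b (0.92), Slc9a7 (0.90) and Scube2 (0.90). Upk3b was most like Rab32 (0.96), Myrf (0.95) and Lhx9 (0.94). Lhx9, a factor of the gonad and of mesothelia, fell by 0.72 ± 0.21 in the double KO (adjusted p = 0.0244), as Upk3b did, and lay below the receptor guide on every KO array. The other genes are named by their likeness alone, with the highest values picked from all genes, and nothing follows from it about function.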

How the data were processed

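Per the labels, PicoPure-isolated total RNA was amplified (NuGEN Ovation) and biotin-labelled (NuGEN Encore). The authors deposited log2 values for each probe set. Their summarization and normalization software was not given in the sources used. They were used unchanged. Of 35557 probe sets, 21789 had 1 gene symbol, 1621 several and 12147 none listed. Where a gene had several (999 genes), the one with the highest mean was kept, giving 19938 genes. A model of 4 group means was fitted with limma 3.58.1 (lmFit, eBayes) in R 4.3.3, with 8 residual and 4.51 prior degrees of freedom, two-sided. It gave 7 planned comparisons and 2 averages added after the values were seen. The script was tested on simulated data. Names, loci and promoters came from RefSeq (GRCm38.p6; 21698 probe sets matched by Entrez number). Precision is limited by having 3 arrays a group. No pair of arrays was identical (0 pairs). Alternatives were quantile normalization again, median centring, array weights, an intensity trend, only the arrays compared, a replicate block, leaving out dim genes, the mean of a gene's probe sets, and leaving out each array. The markers and gene lists were chosen with earlier results of these data known. Besides the markers, named genes were, of each list, up to 4 called genes with the largest change, the 3 most like each marker (leaving out predicted, RIKEN, small RNA and receptor genes), relatives and defining markers, Nkx2-5 and Tbx5. Sema3d, Lrrn4, Tgfbr3, Podxl, Prrx1, Otx2, Sox2 and other list members outside that rule were named after their values were seen.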

Additional observations from a re-analysis of the deposited data

Results flagged for a closer look

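The effect of losing Tbx5 differed with the presence of Nkx2-5 for 4 genes of the lists, by the test of that difference itself (the non-additive term of the limma fit, n = 3 arrays a group). Mab21l2 had a term of 1.501 ± 0.24 (SE, adjusted p = 0.015). Its Tbx5-loss difference was -0.95 with Nkx2-5 present and 0.55 with it absent. Shox2, of the sinus venosus list, had 1.52 ± 0.21 (adjusted p = 0.0076, with all 12 arrays below the receptor guide), and Nr2f1, of the same list, 1.52 ± 0.23 (0.0109). Both read lower in each single KO than in the double KO on average, as Mab21l2 did. Alcam, a cell adhesion gene of the septum transversum list that heart muscle also makes, had -2.04 ± 0.24 (0.0042), in the other direction. It read 12.01 to 12.11 in WT, 10.83 to 11.14 in Nkx2-5 KO, 12.15 to 12.53 in Tbx5 KO and 8.76 to 9.49 in the double KO. Of all genes, 0.547% were called for this term. The sex-linked genes split the arrays by Nkx2-5 state, so a Tbx5-loss difference that varies with sex cannot be told apart here. No test for single outlying arrays was run on these groups of 3 arrays.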

How the results depend on the processing

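Of 885 alternative values of the 5 markers, 826 kept direction and side of the threshold, 24 gained a call, 18 lost one and 17 changed sign, all 17 of uncalled values. Changes of sign with array weights were 0.012 for Upk3b in double KO against Nkx2-5 KO and -0.11 for the non-additive term of Upk1b. The others came from leaving out 1 array, which moved Upk1b in double KO against WT between -0.051 and 0.75. In Tbx5 KO against Nkx2-5 KO, Tcf21 ran from -0.052 to 0.22 and Mab21l2 from -0.26 to 0.014. In double KO against Nkx2-5 KO, Tcf21 ran from -0.34 to 0.067 and Upk3b from -0.10 to 0.081. The non-additive term ran from -0.36 to 0.033 for Wt1 and from -0.32 to 0.48 for Upk1b. Calls that ended or appeared are given in the report for each gene, besides 3 of Upk3b for averaged loss of Tbx5 and, for averaged loss of Nkx2-5, 1 of Tcf21 and 4 of Upk1b.

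Counts of called markers moved as follows. In Nkx2-5 KO against WT there were 2 with array weights. In Tbx5 KO against WT there were 2 after quantile normalization again or centring and 3 with array weights. In the double KO against WT there was 1 with only the arrays compared. Double KO against Nkx2-5 KO had 1 after quantile normalization again and 2 with array weights or only the arrays compared, and the averaged loss of Nkx2-5 had 1 with an intensity trend. Leaving out 1 array gave 0 to 2 in Nkx2-5 KO, 0 to 2 in Tbx5 KO, 1 to 3 in the double KO, 0 to 1 in Tbx5 KO against Nkx2-5 KO, 0 to 2 in double KO against Nkx2-5 KO, 0 to 1 in double KO against Tbx5 KO, 1 to 1 for the non-additive term, 2 to 3 for averaged loss of Tbx5 and 0 to 1 for averaged loss of Nkx2-5.

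Counts of the wider list in Nkx2-5 KO against WT were 4 after quantile normalization again, 7 with array weights and 1 with only the arrays compared. Tbx5 KO against WT had 2 with only the arrays compared, and Tbx5 KO against Nkx2-5 KO 7 with array weights and 5 with only the arrays compared. Double KO against Nkx2-5 KO had 2 with array weights. Double KO against Tbx5 KO had 1 with dim genes left out, an intensity trend or renewed quantile normalization, and 2 with array weights or only the arrays compared. The non-additive term had 1 with array weights. Leaving out 1 array gave 1 to 4 in Nkx2-5 KO, 0 to 4 in Tbx5 KO, 6 to 8 in the double KO, 1 to 4, 1 to 2 and 0 to 2 between KO groups in the order above, 0 to 1 for the non-additive term, 4 to 8 for averaged loss of Tbx5 and 4 to 6 for averaged loss of Nkx2-5. The cause of these shifts was not tested.

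With the replicate number as a replicate block, 1 wider gene was called in Nkx2-5 KO against WT and 1 in double KO against Tbx5 KO. Same-numbered arrays showed no shared deviation (18 pairs, r from -0.27 to 0.21, mean -0.04). This does not settle whether the numbers pair arrays, which the labels do not say. With 3 arrays a group, leaving out 1 array changed many calls.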
